A study of Mus musculus with 6 samples.

Results

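The cohesin complex and its acetyltransferases were examined in the transcriptome of double positive (DP) thymocytes, immature T-lineage cells with CD4 as well as CD8 on their surface. The 10 genes were taken by symbol from the 23183 gene symbols of the deposited tables, and all 10 were found: *Smc1a*, *Smc3*, *Rad21*, *Stag1*, *Stag2*, *Nipbl*, *Pds5a*, *Pds5b*, *Esco1* and *Esco2*. The family was chosen because the level of *Esco2* was known to differ between the genotypes in these libraries, so the differences between genotypes in the 10 genes, and which of them pass the threshold used for all genes, are given as a description that supports nothing, and no p-value is printed for them. DP thymocytes had been sorted from 6-week-old C57BL/6 mice that all carried the floxed allele *Nsrp1* f/f. The 3 WT libraries came from *Nsrp1* f/f mice without further alleles, and the 3 NSrp70-cKO libraries came from *Nsrp1* f/f CD4Cre mice, in which the Cre transgene acts in T-lineage cells from the stage at which Cd4 is switched on. The labels name no treatment and do not say whether the libraries of a genotype came from separate mice, so any p-value measures only the spread between these libraries, which may be technical.

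Cohesin is a ring of SMC1A, SMC3 and RAD21 to which 1 of the alternative subunits STAG1 or STAG2 binds. NIPBL, with its partner MAU2, helps to load the ring onto DNA, WAPL releases it, and PDS5A and PDS5B bind the ring and take part in both its release and its protection. ESCO1 and ESCO2 acetylate SMC3, which stabilises the ring on chromatin. ESCO2 acts chiefly during DNA replication, when sister chromatids become joined, whereas ESCO1 also acts outside S phase. In developing thymocytes cohesin is further known for the chromatin loops that bring together distant segments of the antigen receptor loci.

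The values are FPKM, the fragments of a gene divided by its transcript length and by the number of mapped fragments in the library. No counts came with them. Depth was therefore estimated from the size of the step that 1 fragment makes in low values of single-transcript genes, which gave 20680000 to 20800000 fragments in WT and 13160000 to 20680000 in cKO. FPKM totals were larger in cKO, at 701400 to 850550, than in WT, at 521300 to 531520, so scaling every library to the same total lowers all genes in cKO alike. *Nsrp1*, the targeted gene, which the files list as *Ccdc55*, had an FPKM of 20.2, 20.7 and 21.1 in WT and of 17.7, 15.8 and 15.0 in cKO, and these gene-level values do not resolve the floxed part. The 8 DP markers were all detected, with summed FPKM of 4303 to 4339 in WT and 5380 to 6983 in cKO. The 5 markers of mature single positive cells had sums of 112 to 115 in WT and 98.1 to 120 in cKO. The 3 B cell markers summed to 0.984 to 1.19 in all libraries, the 4 myeloid markers to 3.84 to 4.87, and the 2 double negative markers to 5.20 to 5.71 in WT and 3.08 to 4.27 in cKO. The 3 erythroid markers summed to 1.40 to 2.17 in WT and 9.07 to 16.2 in cKO, nearly all of it *Hbb-b1*, and of the 4 thymic epithelial markers, whose sums were 1.88 to 3.80, *Foxn1* and *Krt5* were listed at 0 in every library. The part of these other cells in the results below was not tested, and in bulk RNA a change in the number of cells of a type and a change in RNA per cell cannot be told apart.

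For 5 of the 10 genes a RefSeq promoter window (GRCm38.p6, 250 bases before to 50 after the annotated start) was at hand: *Smc1a*, *Smc3*, *Stag1*, *Pds5a* and *Pds5b*. They were searched on both strands for the E2F-type letters TTTCCCGC, TTTCGCGC, TTTGCCGC or TTTGGCGC, which occur in promoters of many S phase genes, for the CHR letters TTTGAA of many G2/M genes, and for the letters CCAAT. E2F-type letters were found in 3 of the 5 windows, against 2.26% of all 32851 promoter windows. CHR letters were found in 1 of the 5, against 17.9%, and CCAAT in 3 of the 5 (*Smc1a*, *Stag1* and *Pds5b*), against 37.4%. The 5 windows had a GC content of 58.3 to 80.3%. The set of all windows was not matched to them in GC content, so enrichment was not tested. *Esco1*, *Esco2*, *Rad21*, *Stag2* and *Nipbl* had no window and were not searched. The stretches of 30 bases that hold the E2F-type and CHR matches are shown 5′ to 3′ on the strand of the gene, with the matched letters in capitals, to show what the matches look like in these subunit genes.
*Smc1a*, chrX:152016448-152016477, plus strand: cggcttgcactgcgctaTTTCCCGCgcggg
*Stag1*, chr9:100643420-100643449, plus strand: aaaaggccacgTTTCCCGCgccgctgctgc
*Pds5a*, chr5:65698324-65698353, minus strand: ggcaggtcttgGCGCCAAAcgggtggcggc
*Pds5b*, chr5:150673783-150673812, plus strand: tcttggcgccatTTTGAAgcggagaggcgg
The match began at base 38 after the start in *Smc1a*, 17 bases before it in *Stag1*, 106 before it in *Pds5a* (letters TTTGGCGC on the opposite strand) and 32 before it in *Pds5b*. The *Stag1* window (chr9:100643198-100643497) lies inside the annotated span of that gene, which begins at 100597798. Its start is thus not the outermost one. The *Smc3* window held none of these letters. A match of letters is a description and not a measured binding site.

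In WT DP thymocytes, the messages of the ring were the most abundant and those of the acetyltransferases the least. Per length, *Rad21* stood first with a mean of 154 FPKM ± 0.822 (SD, n = 3), followed by *Smc1a* at 74.9 ± 0.488 and *Stag2* at 74.7 ± 0.484, whose ranges overlapped. *Smc3* followed at 53.6 ± 1.08, *Nipbl* at 50.9 ± 0.621 and *Pds5a* at 47.1 ± 0.423. *Stag1* (30.05 ± 1.02), *Pds5b* (26.2 ± 0.253), *Esco1* (22.8 ± 0.936) and *Esco2* (18.1 ± 0.120) closed the order. Apart from *Smc1a* and *Stag2*, no neighbours in this order overlapped between WT libraries. In cKO the order of the first 4 genes was the same and again only *Smc1a* and *Stag2* overlapped, *Pds5a* stood above *Nipbl*, and *Esco2* stood above *Stag1*, *Pds5b* and *Esco1*.

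**Figure D1:**
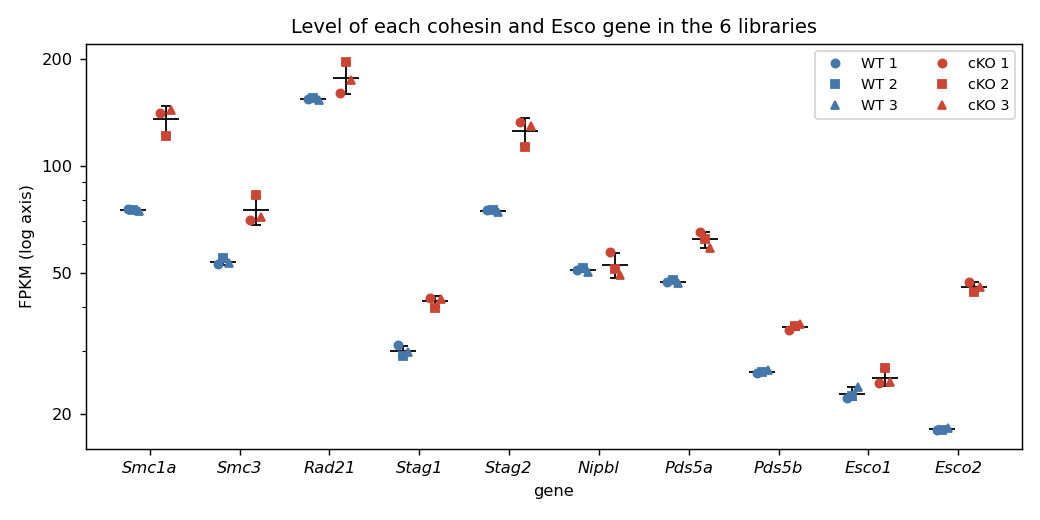
FPKM (log axis) of the 10 genes in the 3 WT (blue) and 3 cKO (red) libraries, with circles, squares and triangles for replicates 1, 2 and 3 and black bars for the mean and SD. The 3 *Esco2* values lie near 18 in WT and between 44.0 and 47.1 in cKO, while *Nipbl* is the gene whose groups overlap.

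The spread between WT libraries was very small. The coefficient of variation of the 10 genes lay between 0.533% (*Rad21*) and 4.10% (*Esco1*) in WT and between 1.92% (*Pds5b*) and 10.1% (*Rad21*) in cKO. The lowest estimated number of fragments behind a value was 1407, for *Esco1*, and the highest 15181, for *Rad21*, with the longest transcript of each gene taken as its length. For 6 of the 10 genes the variation between WT libraries was below the counting error that this number of fragments gives, and for 0 of the 10 it was so in cKO. Across single-transcript genes the median squared difference between libraries was 1.22 to 1.28 times that of counting noise in WT and 5.08 to 13.4 times in cKO. Results are therefore also given with the WT libraries counted as 1 sample.

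With limma on log2(FPKM + 1), 7 of the 10 genes had a Benjamini-Hochberg adjusted p under 0.05, all 7 higher in cKO. Of the 10326 tested genes 65.5% were called, 35.8% higher and 29.8% lower. For 9 of the 10 genes no cKO library reached down to the WT range, which held for 39.1% of tested genes, 0 of the 10 lay wholly below WT, where 33.4% of tested genes did, and 1 gene overlapped. Because the family was chosen on this contrast, nothing is read from these counts. The median log2 fold change was 0.43 over the 10 genes and 0.039 over all tested genes. Counting the WT libraries as 1 sample left 2 of the 10 called, *Esco2* and *Smc1a*, where 7.16% of all genes were called higher. Scaling to the same FPKM total moved the median of all genes to -0.45. It gave 2 members called higher (*Esco2* and *Smc1a*) and 3 called lower (*Esco1*, *Rad21* and *Nipbl*). Of all 10326 tested genes, 902 (8.74%) were then called higher and 6181 lower. Quantile normalization gave 6 called higher and 1 (*Rad21*) called lower, with 3475 (33.7%) of all genes called higher and 3041 lower. After correction for transcript length and GC content the 7 genes of the first fit were called higher, as were 29.9% of all genes. Relative to the median of all genes in the same setting, the median of the 10 was 0.39 with size factors, 0.34 with the same total, 0.25 with quantile normalization and 0.36 after the length and GC correction.

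**Figure D2:**
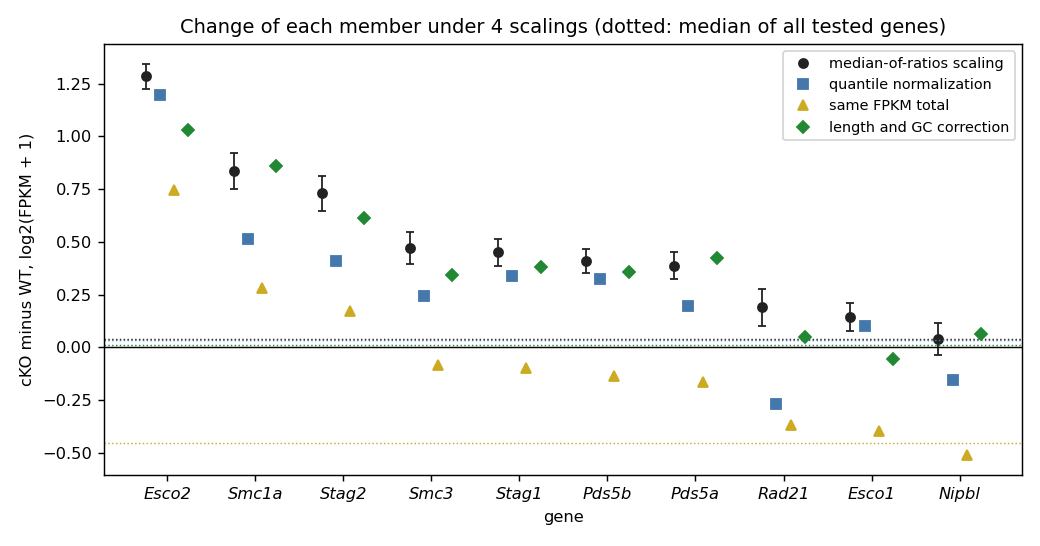
Difference in log2(FPKM + 1), cKO minus WT, for the 10 genes under 4 scalings, with bars for the standard error under median-of-ratios scaling and dotted lines for the median of all tested genes in each setting. *Esco2*, *Smc1a* and *Stag2* stay above 0 in all 4, *Smc3*, *Stag1*, *Pds5a* and *Pds5b* fall below 0 with the same FPKM total, and *Rad21*, *Esco1* and *Nipbl* change sign.

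The acetyltransferase genes had unlike differences between the genotypes. *Esco2* (chromosome 14, 65819038 to 65833994 of GRCm38, minus strand) had an FPKM of 17.98, 18.1 and 18.2 in WT and of 47.1, 44.0 and 45.6 in cKO. The groups lay far apart, and the ratio of their means was 2.52. The log2 fold change of 1.28 (standard error 0.060) stood at percentile 98.8 of all tested genes, and *Esco2* was the 1 member changed at least 2-fold. Of all tested genes 3.88% were at least 2-fold higher in cKO and also called. *Esco1* (chromosome 18, 10566507 to 10610352, minus strand) had an FPKM of 22.1, 22.4 and 23.9 in WT and of 24.4, 26.9 and 24.6 in cKO. Its groups did not overlap, but *Esco1* did not pass the test. Its log2 fold change was 0.14 (standard error 0.066), turning to -0.056 after the length and GC correction and to -0.40 with the same FPKM total. As a share of both acetyltransferase messages, *Esco2* made up 44.8, 44.6 and 43.3% in WT and 65.9, 62.0 and 65.0% in cKO. *Esco1* was thus the more abundant message in each WT library and *Esco2* in each cKO library. The sum of both was 40.9 FPKM ± 1.06 (SD, n = 3) in WT and 70.9 ± 0.720 in cKO.

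Of the ring genes, *Smc1a* (chromosome X, 152016428 to 152062694, plus strand), which encodes an ATPase arm of the ring, had an FPKM of 75.4, 75.0 and 74.4 in WT and of 140, 121 and 143 in cKO. All cKO libraries lay above WT, with cKO 2 the lowest of them. The ratio of means was 1.80 and the log2 fold change 0.84 (standard error 0.084). *Smc3* (chromosome 19, 53600398 to 53645833, plus strand), the other ATPase arm and the substrate of the acetyltransferases, had an FPKM of 52.8, 54.8 and 53.3 in WT and of 70.2, 82.9 and 71.9 in cKO. Here cKO 2 was the highest cKO library, and the log2 fold change of 0.47 (standard error 0.077) became -0.081 with the same FPKM total. *Rad21* (chromosome 15, 51962240 to 51991747, minus strand) encodes the kleisin that closes the ring and is cut at anaphase. It had an FPKM of 154, 155 and 153 in WT and of 160, 195 and 174 in cKO. The groups did not overlap and cKO 2 was again the highest, but *Rad21* did not pass the test, with a log2 fold change of 0.19 (standard error 0.086) that was -0.27 under quantile normalization and -0.37 with the same FPKM total.

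STAG1 and STAG2 are alternative subunits of the ring. *Stag2* (chromosome X, 42149317 to 42277185, plus strand) had an FPKM of 75.1, 74.9 and 74.2 in WT and of 133, 113 and 129 in cKO. Its log2 fold change was 0.73 (standard error 0.083). The cKO libraries lay above WT and cKO 2 was the lowest, as for *Smc1a*. *Stag1* (chromosome 9, 100597798 to 100959375, plus strand) had an FPKM of 31.2, 29.2 and 29.8 in WT and of 42.5, 39.8 and 42.1 in cKO. Its log2 fold change was 0.45 (standard error 0.064), and it was -0.096 with the same FPKM total. *Stag2* made up 70.7, 72.0 and 71.3% of both STAG messages in WT and 75.8, 73.9 and 75.4% in cKO. The shares did not overlap between genotypes and differed by 3.72 percentage points. The difference in the log2 ratio of *Stag2* to *Stag1* was 0.28, and it was 0.071 under quantile normalization, below the SD of 0.077 between the cKO libraries without it.

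*Smc1a* and *Stag2* are the 2 members on chromosome X, and sex-linked transcripts followed the genotype. *Xist* had an FPKM of 69.8 to 72.0 in WT and 4.07 to 5.44 in cKO, and *Ddx3y*, *Eif2s3y*, *Kdm5d* and *Uty* of chromosome Y had an FPKM of 0 in each WT library and between 5.83 and 43.8 in cKO. These transcripts separated every WT from every cKO library. The labels give no sex, and for all genes described here, *Esco2* and the other autosomal members included, effects of the genotype and of whatever sets these transcripts cannot be told apart. Among the 321 tested genes of chromosome X, 46.7% were called higher and 19.3% lower in cKO, and 48% had every cKO library above WT, as both members did. Their median log2 fold change was 0.20, which was 0.0041 after the length and GC correction. *Smc1a* and *Stag2* were at 0.86 and 0.61 after that correction. *Hdac8*, which deacetylates SMC3 and also lies on chromosome X, was lower in cKO (14.9, 14.04 and 14.4 FPKM in WT, 10.5, 12.4 and 11.3 in cKO, log2 fold change -0.32, adjusted p = 0.00763 from limma), but it was not called once the WT libraries entered as 1 sample.

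Within a library, ratios of subunit messages do not depend on how the library is scaled as a whole. The ratio of *Smc1a* to *Stag2* was 1.00 in each WT library and 1.05, 1.08 and 1.11 in cKO. The ratio of *Rad21* to *Smc3* was 2.92, 2.82 and 2.88 in WT and 2.28, 2.36 and 2.43 in cKO, with every cKO library below WT. *Smc1a* to *Smc3* was 1.43, 1.37 and 1.40 in WT and 2.00, 1.47 and 1.99 in cKO, so that cKO 2 stood near WT and the other two well above it. The summed STAG messages per *Rad21* were 0.689, 0.672 and 0.678 in WT and 1.10, 0.780 and 0.982 in cKO, again with cKO 2 the nearest to WT. The cKO libraries thus did not share 1 composition of ring messages. The estimated depth of cKO 2, 20680000 fragments, was close to that of the WT libraries, and cKO 1 and cKO 3 were shallower, at 13160000 and 17400000. The part of depth in these ratios was not tested.

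**Figure D3:**
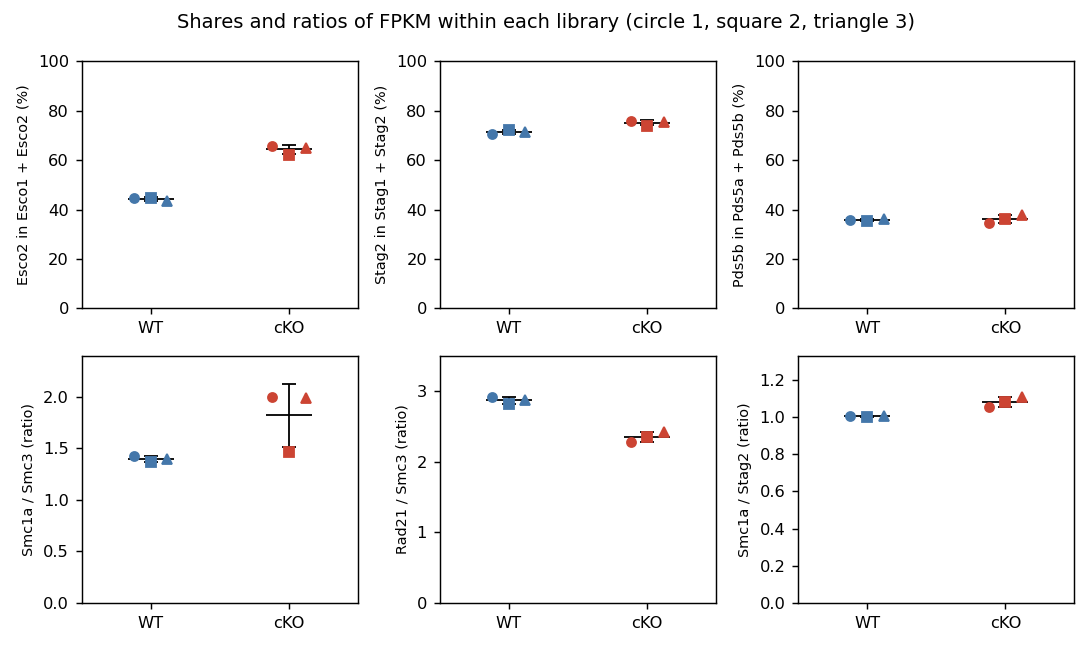
Shares (%) and ratios of FPKM within each WT (blue) and cKO (red) library, with circle, square and triangle for replicates 1, 2 and 3 and black bars for mean and SD. The *Esco2* share moves from a mean of 44.2% to 64.3%, the *Pds5b* share overlaps between genotypes, and cKO 2 lies apart from cKO 1 and 3 in the ratio of *Smc1a* to *Smc3*.

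PDS5A and PDS5B regulate the ring by binding it. *Pds5a* (chromosome 5, 65605721 to 65698273, minus strand) had an FPKM of 46.9, 47.6 and 46.8 in WT and of 65.2, 62.2 and 58.6 in cKO, and *Pds5b* (chromosome 5, 150673739 to 150810690, plus strand) of 26.03, 26.2 and 26.5 in WT and of 34.4, 35.4 and 35.7 in cKO. Both had cKO libraries above all WT libraries, with log2 fold changes of 0.39 (standard error 0.065) and 0.41 (standard error 0.056) that were -0.16 and -0.14 with the same FPKM total. The *Pds5b* share of both was 35.7, 35.5 and 36.2% in WT and 34.6, 36.3 and 37.9% in cKO, which overlapped. *Pds5a* shares up to 146 exonic bases with genes annotated on the opposite strand, and *Stag2* shares 28. The strand setting of the authors' counting is not stated, so reads there cannot be assigned.

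*Nipbl* (chromosome 15, 8290617 to 8444463, minus strand), the loader, was the member with the smallest difference. Its FPKM was 50.8, 51.5 and 50.3 in WT and 57.2, 51.1 and 49.2 in cKO, with cKO libraries on both sides of WT and a log2 fold change of 0.040 (standard error 0.075). *Mau2*, the loader's partner, overlapped as well (31.6, 30.9 and 30.5 in WT, 28.5, 32.8 and 25.5 in cKO, log2 fold change -0.10, adjusted p = 0.345 from limma), and so did *Wapl*, listed as *Wapal* (57.6, 59.0 and 58.8 in WT, 56.7, 67.6 and 62.3 in cKO, log2 fold change 0.082, adjusted p = 0.364). *Mau2* was 0.12 after the length and GC correction, *Wapl* was -0.15 under quantile normalization, and both were called lower with the same FPKM total, at -0.65 and -0.47 against -0.45 for the median gene.

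Of 23 further genes of the cohesin pathway, 21 were tested, and 11 were called higher and 5 lower in cKO by limma, with 5 not called. Of all tested genes 35.8% were called higher and 29.8% lower in this fit. The split of the pathway genes was 3 higher and 11 lower with the same FPKM total, where 902 of all 10326 genes were called higher and 6181 lower. It was 10 and 4 under quantile normalization, where 3475 of all genes were called higher and 3041 lower. The largest rises were those of *Dscc1*, a subunit of the alternative clamp loader needed for cohesion (4.54, 4.59 and 4.61 FPKM in WT, 12.4, 11.1 and 15.1 in cKO, log2 fold change 1.30, adjusted p = 0.000179), and *Pttg1*, which encodes securin, the inhibitor of separase (27.6, 26.9 and 29.6 in WT, 58.1, 71.4 and 65.2 in cKO, log2 fold change 1.18, adjusted p = 0.000129). *Cdca5*, which encodes sororin, the protector of acetylated cohesin, had a mean of 21.1 FPKM ± 0.522 (SD, n = 3) in WT and 35.6 ± 3.03 in cKO (log2 fold change 0.73, adjusted p = 0.000337 from limma). These 3 genes stayed above 0 under each of the other scalings, and *Cdca5* was no longer called with the same FPKM total. Separase itself, *Espl1*, was 8.14 ± 0.116 in WT and 7.46 ± 0.301 in cKO (log2 fold change -0.11, adjusted p = 0.162), and it turned to 0.50 after the length and GC correction.

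Among the pathway genes called lower, *Rec8*, a meiotic kleisin, was low in both groups (2.28 ± 0.370 in WT and 1.18 ± 0.312 in cKO, log2 fold change -0.59, adjusted p = 0.00759), and it was not called after the length and GC correction or with WT as 1 sample. *Chtf18*, the large subunit of the same clamp loader as *Dscc1*, was 6.80 ± 0.256 in WT and 5.36 ± 0.343 in cKO (log2 fold change -0.30, adjusted p = 0.0114), but it was 0.25 after the length and GC correction. *Ctcf*, whose protein stops cohesin at loop anchors, overlapped between the genotypes (108, 111 and 111 in WT, 134, 112 and 125 in cKO, log2 fold change 0.16, adjusted p = 0.132 from limma), and it was called lower under quantile normalization (-0.21) and with the same FPKM total (-0.40).

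Among genes that act at the same time or in related complexes, 13 of the 14 listed under condensin and SMC5/6 were called higher and 0 lower. Beside the subunit genes of these complexes the list holds *Smchd1*, which was among those called higher (0.52). Of all tested genes 35.8% were called higher and 29.8% lower in the same fit. The median log2 fold change of the 14 was 0.67. With the same FPKM total 6 were called higher and 2 lower, and treating WT as 1 sample left 6 called higher and 0 lower. The condensin subunit genes *Ncapg* (17.2 ± 0.764 in WT and 44.8 ± 2.75 FPKM in cKO, log2 fold change 1.33, adjusted p = 8.28e-05) and *Ncapg2* (13.8, 14.5 and 14.2 in WT, 30.5, 31.0 and 33.3 in cKO, log2 fold change 1.10, adjusted p = 8.56e-05) rose most. Of 30 S phase genes, 26 were called higher and 2 lower, with a median of 1.02. *Ccne2*, a cyclin of the entry into S phase (1.42), and *Mcm5*, a subunit of the replicative helicase (1.28), had the largest log2 fold changes, and *Cdt1*, which licenses origins (-0.68), and *E2f8*, a repressor of the E2F family (-0.36), were lower. *E2f8* was not called with WT as 1 sample. All 21 G2/M genes were called higher in this fit, with a median of 1.06, led by *Ccnb1* (1.32), the cyclin of mitotic entry, and *Birc5* (1.23), a subunit of the chromosomal passenger complex. With the same FPKM total 16 of the 21 were called higher and 2 lower, and of the S phase genes 21 higher and 3 lower. In that setting 902 (8.74%) of all 10326 tested genes were called higher and 6181 lower. The lists were chosen with earlier results of these data known, so nothing is read from these counts. The median of the 10 cohesin and Esco genes, 0.43, lay between that of all genes and those of these lists.

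**Figure D4:**
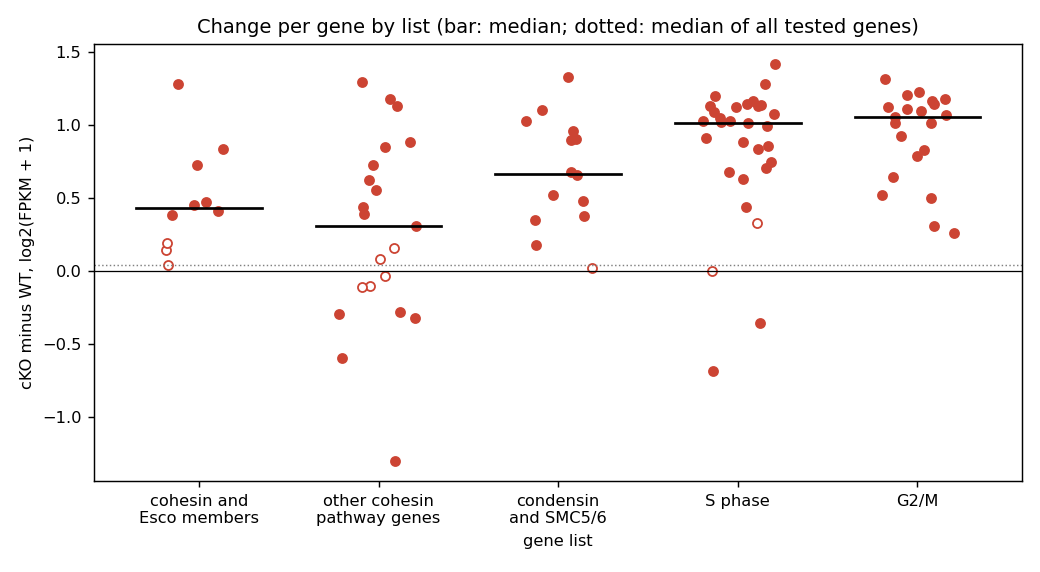
Difference in log2(FPKM + 1), cKO minus WT, of each tested gene in 5 lists, with filled points for genes called by limma, open points for genes not called, bars for list medians and a dotted line for the median of all tested genes. The medians are 0.43 for the 10 cohesin and Esco genes, 0.31 for the other pathway genes, 0.67 for condensin and SMC5/6, 1.02 for S phase and 1.06 for G2/M with median-of-ratios scaling. With the same FPKM total the split of the pathway genes is 3 higher and 11 lower, and that of all tested genes 902 higher and 6181 lower.

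*Esco2* was set against the cell cycle genes within each library. Relative to the geometric mean of the 30 S phase genes, its FPKM was 0.622, 0.622 and 0.632 in WT and 0.890, 0.902 and 0.805 in cKO. Relative to the 21 G2/M genes it was 0.491, 0.495 and 0.491 in WT and 0.655, 0.644 and 0.621 in cKO. The cKO ratios lay above the WT ratios for both lists. *Esco2* was chosen for its difference in this contrast, so nothing is read from these ratios. The 5 tested genes whose values were most like those of *Esco2* over the 6 libraries, by the root mean square difference of log2(FPKM + 1) from the WT mean, were *Kif22* (0.054), a chromosome-binding kinesin, *Ccnb1* (0.057), *Ncapg* (0.059), *Chek1* (0.068), a checkpoint kinase, and *Ckap2l* (0.068), a spindle protein. Their log2 fold changes lay between 1.21 and 1.33, and this likeness rests on the same difference between genotypes by which *Esco2* was chosen.

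**Figure D5:**
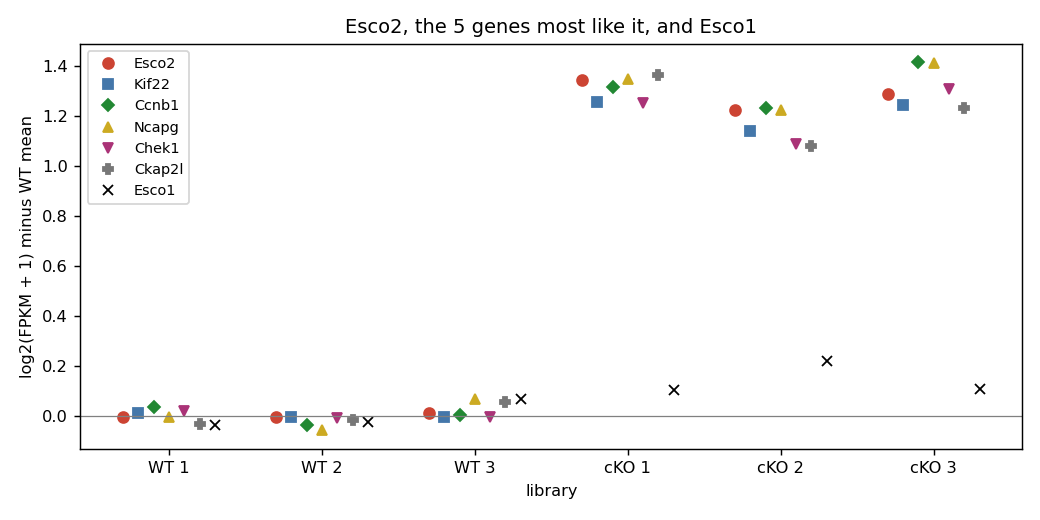
Values of log2(FPKM + 1) minus the WT mean in each library for *Esco2* (red circles), the 5 genes most like it and *Esco1* (black crosses). *Esco2* and its 5 neighbours lie together in every cKO library, above *Esco1*, which turns to a negative mean difference after the length and GC correction and with the same FPKM total.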

How the data were processed

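Poly(A)-enriched, directional libraries from sorted DP thymocytes were sequenced as paired-end reads. The authors used fastx trimmer, aligned to mm10 by TopHat, and deposited Cufflinks FPKM values, 1 per symbol and library. Tool versions, gene annotation and strand setting are not given in the sources used here. The authors tested counts with DESeq2, which FPKM values do not allow.

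Of 23183 symbols, 22110 matched GENCODE M21 (GRCm38) directly and 663 by RefSeq synonym, 48 were ambiguous and 362 unmatched. The depth estimate used 2614 single-transcript protein-coding genes with transcripts over 1000 nucleotides and took fragments to be 200 long. Between 68.7 and 75.0% of low values lay within 0.1 fragment of a whole number.

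Values were scaled by median-of-ratios size factors (1.00 to 1.01). The 10326 genes that reached an FPKM of 1 in 3 or more libraries, all 10 members among them, were fitted by genotype as log2(FPKM + 1) with limma 3.58.1 in R 4.3.3 (lmFit, then eBayes with trend), with Benjamini-Hochberg adjustment and a threshold of 0.05. Fold changes on the log2(FPKM + 1) scale understate the change of low genes. The fit was also run on simulated data with the same spread in both genotypes. The spread of these libraries differed between genotypes, so that run cannot show how the fit behaves here. FPKM in the text are as deposited. Python 3.11.15, numpy 2.4.6, pandas 2.3.3 and matplotlib 3.10.9 were used.

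The members, the gene lists and the tests were chosen with earlier results of these data known. Of each list, the 2 called genes with the largest and the 2 with the most negative log2 fold change are named, together with genes acting directly on the members. Some items that this rule or the marker lists would name are not reported here. Alternatives were pseudocount 0.1, no filter on low values, no size factors, quantile normalization, the same FPKM total, a replicate block, each library left out, the WT libraries averaged as 1 sample, correction of each library for transcript length and GC content by natural splines with 5 degrees of freedom each, no trend, and no genes of chromosomes X and Y.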

Additional observations from a re-analysis of the deposited data

How the results depend on the processing

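Leaving out single libraries gave 5585 to 7667 called genes and 7 to 8 called members. The log2 fold change of *Nipbl* then ranged from -0.026 (without cKO 1) to 0.084, and the difference in the log2 ratio of *Pds5b* to *Pds5a*, 0.021 in the fit with all libraries, from -0.029 (without cKO 3) to 0.072. Quantile normalization gave *Esco2* 1.19, *Rad21* -0.27 and *Nipbl* -0.15, and differences in the log2 ratios of *Stag2* to *Stag1*, *Rad21* to *Smc3* and *Pds5b* to *Pds5a* of 0.071, -0.51 and 0.13. The same FPKM total gave *Esco2* 0.74, *Smc3* -0.081, *Stag1* -0.096, *Pds5b* -0.14, *Pds5a* -0.16, *Rad21* -0.37, *Esco1* -0.40 and *Nipbl* -0.51, with 8 condensin and SMC5/6 genes called and 902 of all genes called higher against 6181 lower, where the main fit had 3693 and 3073. The correction for length and GC content gave *Esco2* 1.03, *Esco1* -0.056, and ratio differences of -0.065 for *Pds5b* to *Pds5a* and -0.058 for *Nipbl* to *Mau2*. Counting the WT libraries as 1 sample, with that sample assumed to vary like the cKO libraries, called 1641 genes in place of 6766, 2 members, 7 other pathway genes and 6 condensin and SMC5/6 genes. The cause of these shifts was not tested. In the fit with replicate number as a block, 6467 genes and 7 members were called. Same-numbered WT and cKO libraries deviated with correlations of -0.022, 0.039 and 0.031. Because deviations in WT were close to counting noise, these correlations cannot decide whether the numbers pair the libraries. The difference in the log2 ratio of *Esco2* to *Esco1* moved by less than the SD between cKO libraries under all 16 alternatives. Several of these could hardly move it. Scaling whole libraries, the choice of test and the set of tested genes leave a ratio within a library nearly as it was. *Esco2* was chosen on this contrast, so nothing is read from this.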

Other observations

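Of the meiotic and germline paralogs of cohesin, *Rad21l* was listed at 0 in every library, and *Smc1b* was at most 0.0249 FPKM. *Stag3*, the third STAG paralog, had an FPKM of 1.06, 1.12 and 1.03 in WT and of 0.651, 0.907 and 0.575 in cKO, with all cKO libraries below WT (log2 fold change -0.28, adjusted p = 0.0452 from limma), but the difference was 0.060 under quantile normalization. Of the SMC5/6 complex, the non-SMC genes *Nsmce1* (78.2 ± 0.796 in WT and 148 ± 21.5 in cKO, SD, n = 3) and *Nsmce2* (35.4 ± 1.21 and 70.0 ± 8.76) had log2 fold changes of 0.90 and 0.96, and the SMC genes *Smc5* (22.8 ± 0.317 and 26.04 ± 1.11) and *Smc6* (24.7 ± 0.364 and 32.4 ± 2.22) of 0.18 and 0.38. *Nsmce4a*, the remaining non-SMC gene of the list, was at 0.48, nearer to *Smc6*. With the same FPKM total *Nsmce1* and *Nsmce2* were at 0.34 and 0.41, *Smc5* and *Smc6* at -0.36 and -0.17, and *Nsmce4a* at -0.078. *Nsmce4a* was at 0.14 under quantile normalization and at 0.12 after the length and GC correction, below *Smc6* (0.30 and 0.25) in both. The listed non-SMC genes thus all lay above the SMC genes in the main fit and with the same FPKM total. They did not all do so under quantile normalization or after the length and GC correction. These genes were named after their values were seen.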
